A study of Mus musculus with 3 samples.

Results

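The 10 genes described here are 8 immediate early genes (Fos, Fosb, Jun, Junb, Jund, Egr1, Atf3 and Ier2) and 2 heat shock genes (Hspa1a and Hspa1b), taken by name from the 36593 genes listed over 3 single-cell count tables of the adult mouse testis. All 10 had counts in each of the 3 libraries. The study asked which testicular cells supply stem cell factor (SCF, the product of Kitl) to germ cells, and all mice were on a C57BL/6 background. The Tomato-negative library was made from Ddx4-creER; R26tdTomato mice, aged 8 weeks and given tamoxifen, in which the germ-cell Ddx4 promoter drives the Cre recombinase, and cells without the Tomato signal were sorted to enrich somatic cells. The Scf-cKO library was made from mice of the genotype Amh-cre; Scf fl/fl, aged 6 weeks, in which the Sertoli-cell Amh promoter drives Cre. The control library was made from Scf fl/fl mice of the same age without Cre, and in both of these libraries haploid germ cells were depleted by a DNA-dye sort. Every library was made from enzymatically digested testes and pooled several mice, so a group is 1 sample here: no test between groups was possible, and the 95% intervals below cover counting error only.

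Immediate early genes are transcribed within minutes of a signal to the cell, without new protein being made first, and their mRNAs are short-lived. FOS and JUN proteins pair into the AP-1 transcription factor, which binds the enhancers of many growth and stress genes. The inducible HSP70 genes Hspa1a and Hspa1b are driven by heat shock factor when proteins unfold. Both sets are known to be induced while solid tissue is digested into single cells, so their level in a droplet library can hold both what the cell carried in the tissue and what it made during preparation, and the counts do not separate these.

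The sequence upstream of 3 of the genes is shown because it carries the letters of elements known to act in switching on these 3 genes. The windows are the 250 bases before the gene start in RefSeq (GRCm38.p6), written 5′ to 3′ on the strand of the gene: Fos on the + strand at chr12:85473640-85473889, Hspa1a on the - strand at chr17:34972157-34972406 and Hspa1b on the - strand at chr17:34959239-34959488. Windows were used for 8 of the 10 genes, and none for Egr1 or Ier2. In GRCm38 Atf3 lies on chromosome 1, Jun on 4, Fosb on 7, Junb, Jund and Ier2 on 8, Fos on 12, Hspa1a and Hspa1b on 17 and Egr1 on 18. Capitals mark, in Fos, the letters TGACG (the core of the cAMP response element, bound by CREB and ATF proteins) and TATAAA, and in the Hspa1 genes the letters GAANNTTC (a pair of inverted heat shock element units) and ATTGG (the CCAAT box read on the other strand).
Fos: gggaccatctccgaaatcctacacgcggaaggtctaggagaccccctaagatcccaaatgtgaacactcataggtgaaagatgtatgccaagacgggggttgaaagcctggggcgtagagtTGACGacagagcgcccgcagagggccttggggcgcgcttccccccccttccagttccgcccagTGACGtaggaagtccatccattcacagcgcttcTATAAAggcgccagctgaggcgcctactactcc
Hspa1a: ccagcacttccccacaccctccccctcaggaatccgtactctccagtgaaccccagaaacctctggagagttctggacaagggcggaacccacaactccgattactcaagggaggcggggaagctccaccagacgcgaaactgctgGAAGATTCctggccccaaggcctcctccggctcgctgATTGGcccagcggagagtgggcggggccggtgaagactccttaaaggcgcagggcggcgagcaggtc
Hspa1b: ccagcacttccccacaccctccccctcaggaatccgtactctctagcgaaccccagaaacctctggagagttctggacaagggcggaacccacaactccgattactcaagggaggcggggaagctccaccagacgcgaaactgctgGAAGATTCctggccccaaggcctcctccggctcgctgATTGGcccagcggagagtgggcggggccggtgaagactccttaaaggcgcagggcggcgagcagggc
In Fos the letters TGACG stood at 129 to 125 and at 66 to 62 bases before the start, and TATAAA at 33 to 28. In both Hspa1 genes GAANNTTC stood at 104 to 97 and the CCAAT box at 67 to 63 bases before the start. Searched on both strands of the 32851 promoters of the same length, TGACG was in 17.8%, TATAAA in 12.4%, CCAAT in 33.8% and GAANNTTC in 6.69%. The Fos window does not stand for the other immediate early genes. TGACG was also in the windows of Fosb, Junb and Atf3 but not of Jun or Jund, and GAANNTTC was also in that of Jun. The Jund and Atf3 windows lie 1210 and 34706 bases from the annotated gene start. Hspa1a and Hspa1b are neighbours with near-identical windows: 247 of 250 bases are the same (98.8%), and the differences are C44T, T47C and T249G, with the Hspa1a base first and positions counted from the 5′ end of the window. A match of letters is a description of the window and not a measured binding site. Reads from the 2 genes may have been split or discarded by the counting, so their separate values are uncertain and their sum is the steadier measure.

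With cells limited to 200 to 3500 genes and mitochondrial counts to 10%, 2159 of 7626 Tomato-negative barcodes, 4545 of 7252 Scf-cKO barcodes and 3637 of 6264 control barcodes were kept, with median depths of 5515, 5359 and 4599 UMIs (unique molecular identifiers, 1 per captured mRNA molecule). The libraries shared 9, 13 and 15 barcode sequences pairwise. Cells were put into 11 marker-defined classes, and the 26 combinations of class and library with at least 30 cells were used. The markers of the named classes were present in them: all 12 Sertoli markers were seen in at least 10% of the 400 Sertoli cells, all 9 endothelial markers in the 64 endothelial cells, all 9 myoid markers in the peritubular myoid cells of each library, 7 or 8 of 9 stromal markers in the Tcf21 stromal cells, 11 of 12 immune markers in the immune cells, 8 or 9 of 11 markers in undifferentiated spermatogonia and 7 to 9 of 9 in differentiating ones. Vascular smooth muscle cells also carried 7 or 8 of the 9 myoid markers. Sertoli cells reached 30 only in the Tomato-negative library, so the cells in which Scf was deleted could not be compared between genotypes. In cells outside the deleted lineage Kitl stood at 328 CPM (the gene's UMIs scaled in the usual way to the summed UMIs of its class) in Scf-cKO Tcf21 stromal cells and 348 CPM in control ones, and a 3′ count need not see the deletion. Germ-cell transcripts in somatic classes summed to 18.3 to 38.0 CPM in the Scf-cKO library, against 762 to 2201 CPM in the control library, and to 706 CPM or more in the Tomato-negative library; their part in the results below was not tested.

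Among classes with at least 30 cells, the 8 immediate early genes were most abundant in the mesenchymal cells of the interstitium and tubule wall. These genes were least abundant in germ cells and Sertoli cells. Their summed level in Tcf21 stromal cells, the fibroblast-like progenitor population, was 27045 CPM in the Tomato-negative library, 29429 CPM in the Scf-cKO library and 29886 CPM in the control library. In peritubular myoid cells, the contractile cells around the tubules, it was 21764, 24361 and 20249 CPM in the same libraries. These 8 genes thus took 2.70%, 2.94% and 2.99% of all UMIs of Tcf21 stromal cells. Vascular smooth muscle cells held 9558, 19162 and 14285 CPM. Immune cells held 6783, 11957 and 8850 CPM. With the limits above, the order Tcf21 stromal, myoid, vascular smooth muscle, immune, undifferentiated spermatogonia was the same in all 3 libraries, and no intervals of neighbours in it met. In the Tomato-negative library this order depended on processing. With classes from each cell's own markers, vascular smooth muscle cells there held 16577 CPM and myoid cells 15127 CPM. Without the upper limit on detected genes, vascular smooth muscle cells there held 3222 CPM, while immune cells held 6537 CPM or more under every alternative. Endothelial cells, present in number only in the Tomato-negative library, held 20331 CPM, between myoid and vascular smooth muscle cells. The 37 Leydig cells of the Scf-cKO library, the steroid-making cells, held 17701 CPM, between vascular smooth muscle and immune cells. All 9 Leydig markers were seen in at least 10% of these 37 cells, at 7418 CPM. So were 7 of 12 Sertoli markers, at 4280 CPM, and 6 of 9 Tcf21 stromal markers, at 3311 CPM. The part of these transcripts in the Leydig level was not tested.

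**Figure D1:**
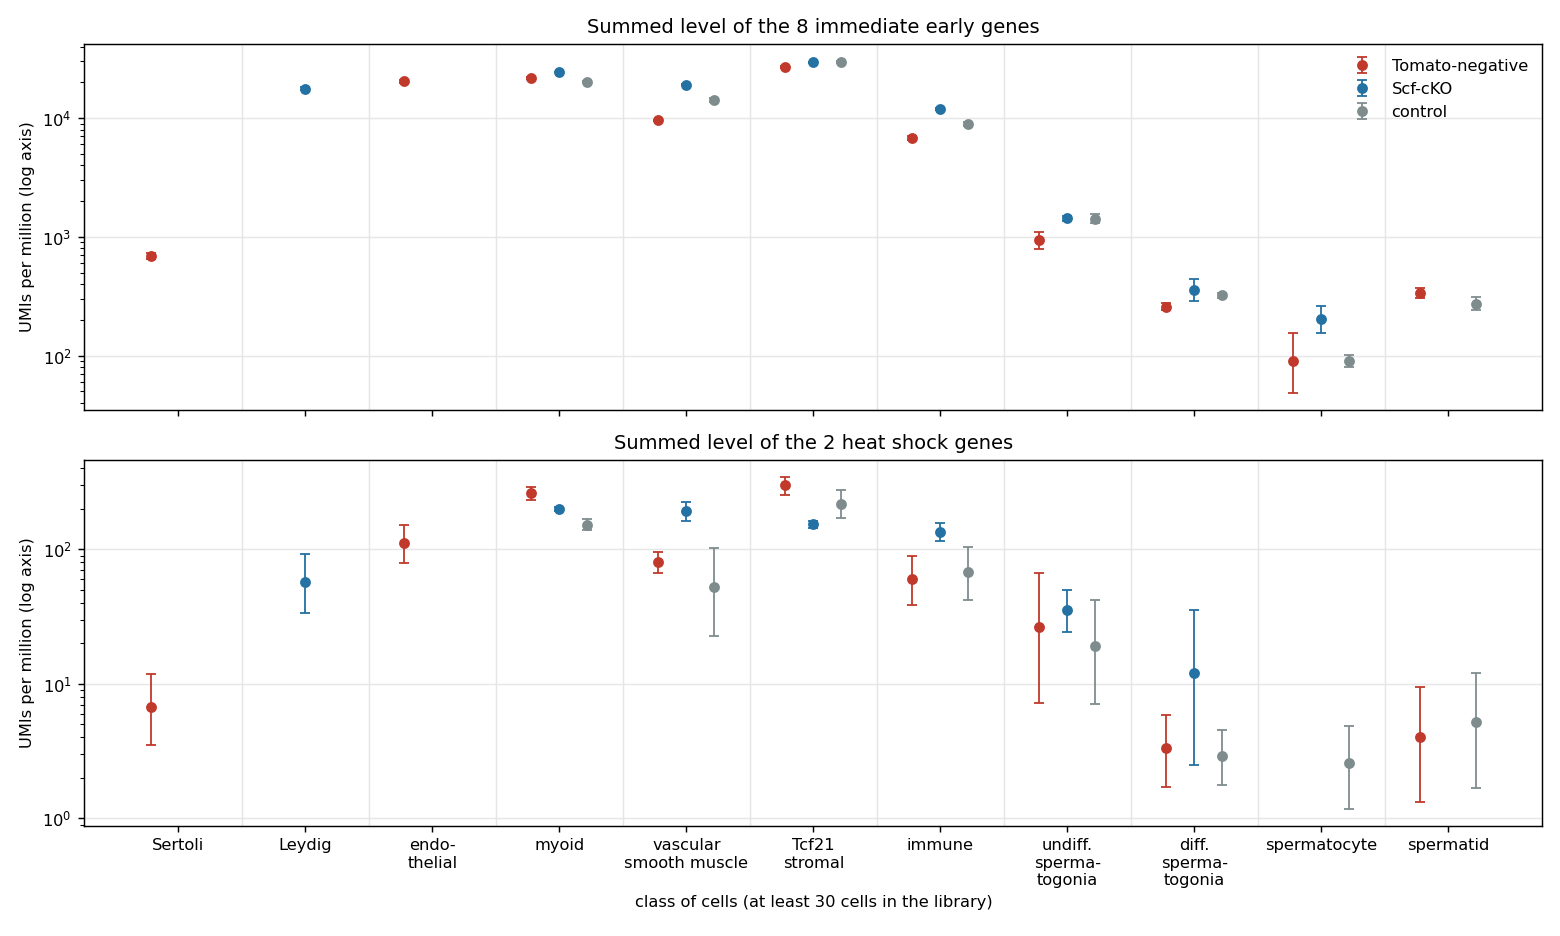
Summed CPM of the 8 immediate early genes and of the 2 heat shock genes by class (log axis), with 1 point for each library of at least 30 cells and bars for the 95% counting interval; a class with no count is not drawn. For the immediate early genes, Tcf21 stromal and myoid cells lead in all 3 libraries, and Sertoli cells, at 694 CPM, lie with the germ cells. For the heat shock genes in the Scf-cKO library, vascular smooth muscle cells (192 CPM) lie between myoid (199 CPM) and Tcf21 stromal cells (153 CPM).

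Fos, the founding partner of AP-1, made up the largest share of these counts in myoid cells of all 3 libraries. The assay counts a 3′ fragment once per captured mRNA whatever its length, and levels of different genes are given here only as shares of UMIs. In myoid cells it stood at 6091 CPM (Tomato-negative), 7517 CPM (Scf-cKO) and 6869 CPM (control). In Tcf21 stromal cells it was 3294, 7281 and 7538 CPM, and in vascular smooth muscle cells 1444, 6123 and 4478 CPM, so that the Tomato-negative library was the low one in both. In immune cells it was 545, 2221 and 1545 CPM. Fosb, whose protein can take the place of FOS in AP-1, was highest in Tcf21 stromal cells in every library, at 5414, 4032 and 3713 CPM, with 2144, 2807 and 2106 CPM in myoid cells.

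The Jun genes differed in how widely they were found. Jun, the main partner of FOS, stood at 4171, 4596 and 5424 CPM in Tcf21 stromal cells of the Tomato-negative, Scf-cKO and control libraries and at 3311, 3336 and 3077 CPM in myoid cells. Junb, a second partner, was the immediate early gene with the most even level over immune cells: 1883, 1813 and 1770 CPM, with overlapping intervals. After thinning each cell to 1000 UMIs, Junb was seen in 81.6%, 72.2% and 73.2% of immune cells, against 0.536%, 6.98% and 1.56% of differentiating spermatogonia. Jund, which in many tissues is present without a stimulus, was the only one of the 8 genes above 100 CPM in every class and library outside spermatocytes: 172 CPM was its lowest value there, in Tomato-negative differentiating spermatogonia, and 5519 CPM its highest, in Tomato-negative Tcf21 stromal cells.

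Among the other 3 immediate early genes, Egr1, a zinc-finger factor induced by growth factors and stretch, stood at 4080, 2893 and 2939 CPM in Tcf21 stromal cells and at 2799, 2974 and 2089 CPM in myoid cells of the Tomato-negative, Scf-cKO and control libraries. Ier2, a small nuclear protein gene of the same early wave, stood at 687, 1280 and 1406 CPM in Tcf21 stromal cells. Atf3, a stress-induced repressor of the ATF family, had another order of classes. It was highest in vascular smooth muscle cells of the Scf-cKO library, at 1353 CPM, and of the control library, at 1275 CPM, and in the Tomato-negative library it stood at 1834 CPM in endothelial cells and 1622 CPM in vascular smooth muscle cells. Myoid cells held 780, 437 and 389 CPM of Atf3, less than Tcf21 stromal cells of the same library.

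**Figure D2:**
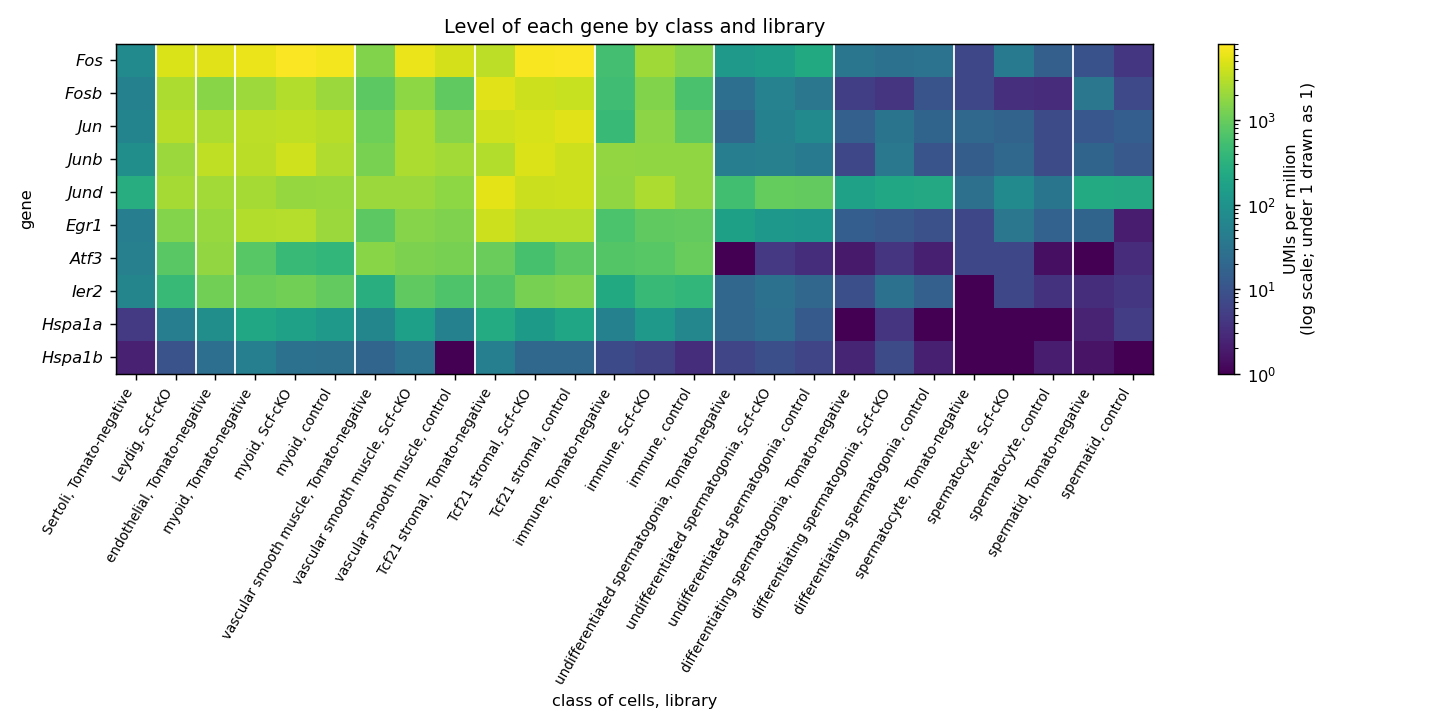
Level of each of the 10 genes (CPM, log scale) in every class and library with at least 30 cells. Fos, Fosb, Jun and Egr1 peak in Tcf21 stromal or myoid cells in every library, as do Junb and Ier2 outside the Tomato-negative library, where endothelial cells hold 3406 CPM of Junb and 1165 CPM of Ier2; Atf3 peaks in endothelial or vascular smooth muscle cells, and Jund stays above 100 CPM in spermatogonia and spermatids.

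Sertoli cells, the somatic cells inside the tubule that nurse the germ cells, stood apart from most other somatic classes of their own library. Their 8 genes summed to 694 CPM, against 6783 CPM or more in the other somatic classes of that library with at least 30 cells. The 29 Leydig cells of the Tomato-negative library, too few to be used, were lower still, at 313 CPM. Myoid cells had 31.3 times the summed level of Sertoli cells (29.6 to 33.2) and 81.9 times the Fos level (69.2 to 98.5), with Fos at 6091 CPM in myoid cells and 74.1 CPM in Sertoli cells. The gap was smaller for Jund, at 2408 CPM in myoid cells and 269 CPM in Sertoli cells, a ratio of 8.96 (8.13 to 9.90). Endothelial cells had 29.3 times and immune cells 9.77 times the summed level of Sertoli cells. After thinning to 1000 UMIs, Fos was seen in 3.69% of Sertoli cells (2.03% to 6.12%), against 3.39% of differentiating spermatogonia of that library, a germ-cell class taken as background; before thinning the shares were 9.0% and 18.1%, at median depths of 4048.5 and 6725 UMIs. The thinned share of Sertoli cells was thus at the background, whereas the Fos level, at 74.1 CPM (62.0 to 87.9) in Sertoli cells and 33.7 CPM (27.9 to 40.2) in differentiating spermatogonia of that library, was above it beyond counting error. The level in Sertoli cells moved with mitochondrial content: it was 2610 CPM in the 57 cells under 2.5% mitochondrial counts, 1022 CPM in the 69 cells from 2.5% to 5% and 313 CPM in the 274 cells from 5% to 10%. The median Sertoli cell had 6.99% mitochondrial counts and germ-cell transcripts summing to 9356 CPM, with all 7 elongating spermatid markers seen in at least 10% of cells; the part of these in the low level was not tested. Without the upper limit on detected genes the class had 641 cells and 2645 CPM. Vascular smooth muscle cells of that library then held 3222 CPM, so the gap to that class depended on the limit.

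Single cells were more alike in some classes than in others. The 8 genes made up a median of 2.63%, 2.90% and 2.89% of a Tcf21 stromal cell's UMIs in the Tomato-negative, Scf-cKO and control libraries and 2.19%, 2.39% and 2.0% of a myoid cell's. Thinned to 1000 UMIs, 95.7%, 97.6% and 89.4% of Tcf21 stromal cells and 92.6%, 95.7% and 95.4% of myoid cells had at least 4 of the 8 genes. The transcripts were thus seen in most cells of these classes and not in a few. In vascular smooth muscle cells the share with at least 4 genes was 67.9%, 88.8% and 89.5%, and in immune cells 34.6%, 56.6% and 68.0%. Endothelial cells spread most widely, with a 10th percentile of 0.142%, a median of 1.50% and a 90th percentile of 3.92% of UMIs. Of Sertoli cells 1.58% had at least 4 of the 8 genes, and their median was 0.0227% of UMIs, although the highest cell reached 3.36%. No differentiating spermatogonium of the control library had at least 4 genes at this depth (0 of 1350 cells, which allows a share of up to 0.222%).

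**Figure D3:**
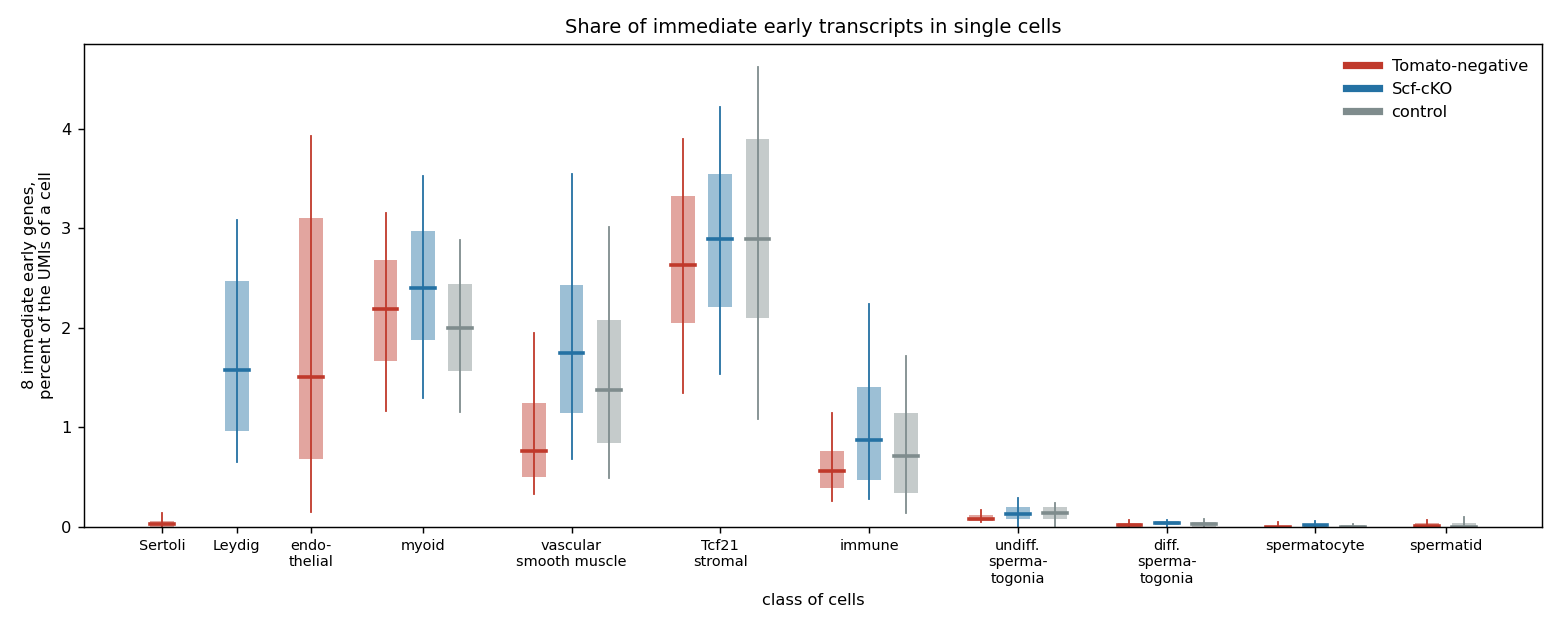
Percent of each cell's UMIs that came from the 8 immediate early genes, by class and library: the line spans the 10th to 90th percentile, the box the quartiles, and the bar is the median. Medians are 2.0% to 2.90% in myoid and Tcf21 stromal cells and 0.0227% in Sertoli cells.

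The mixture of the 8 genes differed between classes. Fos was the largest part in control myoid cells, at 33.9% of the 8 genes' UMIs, and Jund a small one, at 9.96%. In control differentiating spermatogonia Jund was 70.0% and Fos 9.54% of the summed counts. The mixture also differed between libraries in vascular smooth muscle and Tcf21 stromal cells. In Tomato-negative vascular smooth muscle cells Fos was 15.1% and Jund 21.8%, against 31.4% and 12.3% in control ones. In Tomato-negative Tcf21 stromal cells Fos was 12.2% and Fosb 20.02%, against 25.2% and 12.4% in control ones.

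**Figure D4:**
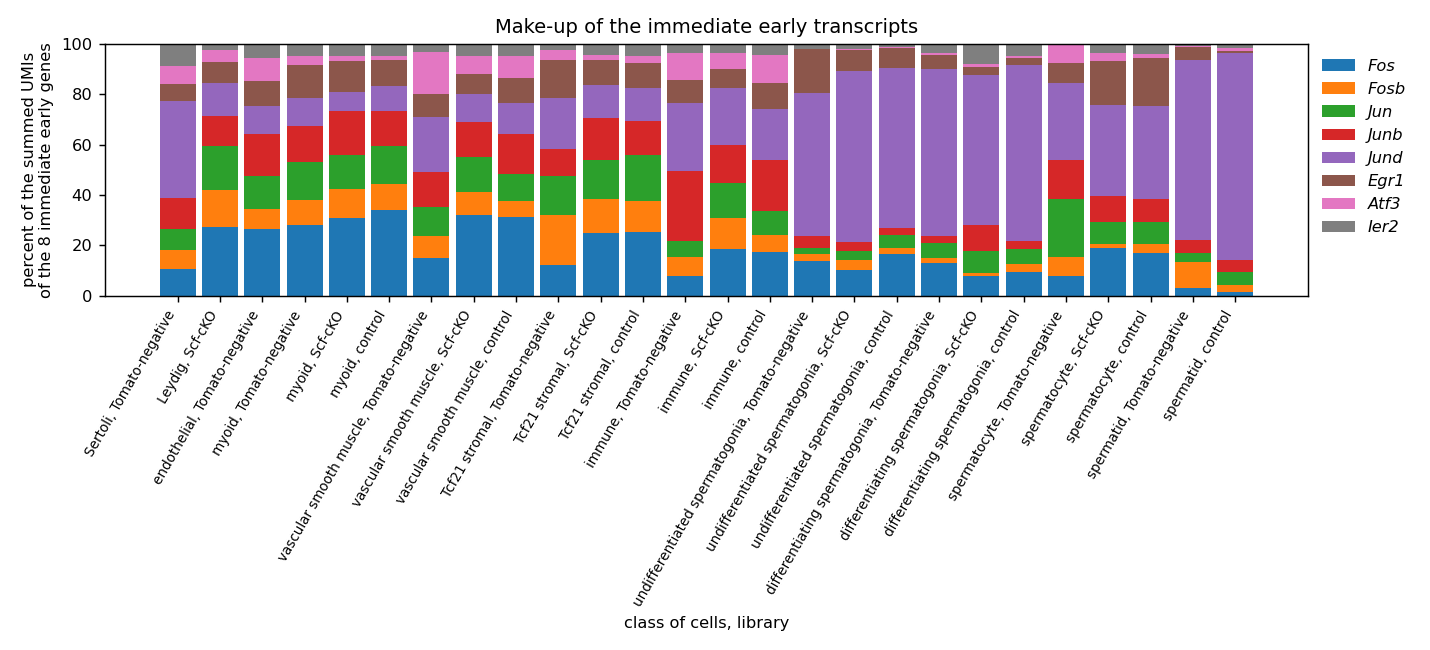
Share of the 8 genes' summed UMIs taken by each gene, by class and library, in percent. Fos is the largest part in control and Scf-cKO myoid cells, and Jund in spermatogonia and spermatids.

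Hspa1a and Hspa1b took a far smaller part of the counts than the immediate early genes but were high in the same classes. Their sum was 299, 153 and 219 CPM in Tcf21 stromal cells and 261, 199 and 153 CPM in myoid cells of the Tomato-negative, Scf-cKO and control libraries. Vascular smooth muscle cells had 80.5, 192 and 52.3 CPM, immune cells 59.8, 135 and 67.6 CPM, and the single-library classes 111 CPM (endothelial, Tomato-negative) and 57.4 CPM (Leydig, Scf-cKO). Sertoli cells had 6.79 CPM, and myoid cells of the same library 37.0 times that (21.7 to 75.3). Hspa1a carried most of the counts in the somatic classes: in myoid cells it stood at 214, 170 and 126 CPM, and Hspa1b at 47.7, 29.2 and 27.2 CPM. Thinned to 1000 UMIs, Hspa1a was seen in 21.5%, 15.1% and 11.3% of myoid cells. The other 24 heat shock genes of a wider list, mostly constitutive chaperones and co-chaperones, had no such order: they summed to 8943, 8673 and 8916 CPM in myoid cells and to 9684, 10761 and 10412 CPM in differentiating spermatogonia, and were highest in control spermatocytes at 13941 CPM.

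In the germline the 8 genes were highest in undifferentiated spermatogonia, the class that holds the stem cells, and lower at each later stage up to spermatocytes. Their sum in undifferentiated spermatogonia was 940 CPM (31 cells) in the Tomato-negative library, 1429 CPM (323 cells) in the Scf-cKO library and 1428 CPM (75 cells) in the control library. In differentiating spermatogonia it was 258, 359 and 322 CPM, and in spermatocytes, the cells in meiosis, 91.0, 204 and 89.99 CPM. Spermatids held 335 CPM in the Tomato-negative library and 274 CPM in the control library. Unnamed cells, 14.2% of Tomato-negative, 6.03% of Scf-cKO and 9.12% of control germ cells, are outside these classes. Shallow unnamed clusters that scored best for differentiating spermatogonia held 715 CPM in 143 Tomato-negative cells and 483 CPM in 242 control cells. These levels come from cells under the upper limit on detected genes. Without that limit undifferentiated spermatogonia numbered 571 (Tomato-negative), 2326 (Scf-cKO) and 311 (control), and Tomato-negative spermatocytes 1281 in place of 42. Within the control library undifferentiated over differentiating spermatogonia gave ratios of 12.3 for Egr1 (7.85 to 18.8), 7.69 for Fos (5.78 to 10.0) and 4.05 for Jund (3.55 to 4.59). The same 3 ratios were 11.5, 3.99 and 3.12 in the Tomato-negative library and 8.68, 4.89 and 4.49 in the Scf-cKO library. Thinned to 1000 UMIs, Fos was seen in 16.1%, 12.9% and 24.2% of undifferentiated spermatogonia, against 3.39%, 4.65% and 3.11% of differentiating ones.

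Jund was the gene that carried the germline pattern. It stood at 532, 970 and 910 CPM in undifferentiated spermatogonia and at 172, 214 and 225 CPM in differentiating ones of the Tomato-negative, Scf-cKO and control libraries. In spermatocytes it was 28.0, 73.9 and 33.3 CPM, and in spermatids 239 CPM (Tomato-negative) and 226 CPM (control). Control spermatids thus had 6.78 times the Jund level of control spermatocytes (5.40 to 8.58). Fos was lower in control spermatids, at 4.15 CPM from 4 counts, against 15.4 CPM from 54 counts in control spermatocytes. In the Tomato-negative library Fos had 12 counts in 226 spermatids and 1 in 42 spermatocytes, so no order is given there. Hspa1a and Hspa1b were at the counting limit in the later stages: the sum was 2.56 CPM in control spermatocytes and no count was seen in 42 Tomato-negative or 50 Scf-cKO spermatocytes, where 3 counts would be 21.0 and 10.6 CPM. Other HSP70 genes were counted in these later stages. Hspa2, the HSP70 of meiotic germ cells, stood at 1036, 179 and 447 CPM in spermatocytes of the Tomato-negative, Scf-cKO and control libraries. Its counts were not confined to germ cells: myoid cells had 332 CPM of Hspa2 in the Tomato-negative and 434 CPM in the control library. Hspa1l, the testis member encoded beside Hspa1a and Hspa1b, stood at 250 CPM in Tomato-negative and 234 CPM in control spermatids.

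Scf-cKO over control was compared class by class in the 2 libraries that shared age and sort. The 8 genes summed to 24361 CPM in Scf-cKO and 20249 CPM in control myoid cells, a ratio of 1.20 (1.19 to 1.21), while the median ratio over 13604 genes was 0.953. In vascular smooth muscle cells the ratio was 1.34 (1.28 to 1.40), in immune cells 1.35 (1.30 to 1.41), and in Tcf21 stromal cells 0.985 (0.965 to 1.0). In undifferentiated spermatogonia it was 1.0 (0.898 to 1.12). No single gene was past a ratio of 2 or under 0.5 in myoid cells (0 of 10), where 4.35% and 7.56% of all genes with enough counts (at least 20 over both libraries) were, or in Tcf21 stromal cells (0 of 10), where 8.91% and 10.6% were. Junb had 4181 CPM in Scf-cKO and 2770 CPM in control myoid cells, a ratio of 1.51 (1.48 to 1.54), the highest of the 10 there. Egr1 followed at 1.42 (1.39 to 1.46), with Hspa1a at 1.35 (1.22 to 1.51), and Jund was the lowest, at 0.947 (0.921 to 0.973).

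In immune cells Fosb stood at 1467 CPM in the Scf-cKO library and 605 CPM in the control library, a ratio of 2.42 (2.08 to 2.83), and Jun at 1683 CPM in the Scf-cKO library and 837 CPM in the control library, a ratio of 2.01 (1.77 to 2.30). These were the 2 of 9 genes with enough counts above a ratio of 2, against 11.5% of all genes. Atf3 ran the other way at 0.786 (0.691 to 0.899), and none was under 0.5, against 10.5% of all genes. In vascular smooth muscle cells Fosb had 1762 CPM in the Scf-cKO library and 896 CPM in the control library, a ratio of 1.96 (1.65 to 2.36). Hspa1a, with 120 counts in 145 Scf-cKO cells and 8 counts in 38 control cells, had a ratio of 2.91 (1.51 to 7.30; 0.5 is added to both counts of every ratio) there, where 7.16% of all genes were above 2, and no gene of the 10 was under 0.5, against 5.23%. Hspa1b had 23 counts in the Scf-cKO cells and none in the control cells, which makes it at least 1.57-fold higher against a floor of 3 counts in the control class. In Tcf21 stromal cells the lowest ratios were those of Hspa1a, at 133 CPM in Scf-cKO and 199 CPM in control cells (0.662, 0.521 to 0.865), and of Atf3, at 0.696 (0.618 to 0.788). Scf-cKO spermatocytes, of which there were 50, had 58 counts of the 8 genes and a ratio of 2.28 (1.68 to 3.01) over the 316 counts of control ones, and all 5 genes with enough counts were above 2 there, against 6.86% of all genes. The 2 sets of spermatocytes differed in their markers: those of differentiating spermatogonia summed to 1643 CPM in Scf-cKO spermatocytes, against 765 CPM in control ones, and 47 of the 50 Scf-cKO cells, against 582 of the 792 control cells, lay in the same cluster, where the 8 genes held 209 CPM in the Scf-cKO cells and 101 CPM in the control cells. The part of this difference in the ratio was not tested. Junb alone of 7 was above 2 in the 43 Scf-cKO differentiating spermatogonia, at 3.67 (1.54 to 7.03) from 9 counts, against 6.75% of all genes.

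The myoid comparison was between different clusters: 2025 of the 2058 Scf-cKO myoid cells lay in one cluster of the joint map and 626 of the 635 control myoid cells in another. The 33 Scf-cKO cells in the cluster of the control cells had 17278 CPM of the 8 genes, against 20255 CPM in those control cells, so that the ratio of 1.20 was not seen within that cluster. In the cluster of the Scf-cKO cells it was, with 24496 CPM in those 2025 cells, against 18749 CPM in 9 control cells. In immune cells the largest shared cluster had 10453 CPM in 215 Scf-cKO cells and 8909 CPM in 139 control cells, and a further cluster of 54 Scf-cKO cells, with 2 control cells, had 18162 CPM. Markers of other classes moved with the immune ratio: the 9 Tcf21 stromal markers summed to 1322 CPM in Scf-cKO immune cells, against 303 CPM in control ones, and the 9 myoid markers to 934 CPM, against 367 CPM. Without doublets the immune ratio was 1.18. The part of these transcripts in the immune result was not tested.

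Tomato-negative over control sets libraries side by side that differ in mouse line, age and sort at once, and these cannot be told apart. The medians of all genes were shifted in this comparison, by -0.11 in myoid, -0.16 in Tcf21 stromal, -0.26 in vascular smooth muscle and -0.48 in immune cells on the log2 scale, and the ratios below are before any correction for it. The 8 genes summed to a ratio of 1.07 in myoid cells (1.06 to 1.09), 0.905 in Tcf21 stromal cells (0.883 to 0.928), 0.669 in vascular smooth muscle cells (0.640 to 0.700) and 0.766 in immune cells (0.727 to 0.808). Fos was lower in all 4 classes: its ratio was 0.322 in vascular smooth muscle cells (0.296 to 0.352), 0.353 in immune cells (0.30 to 0.415), 0.437 in Tcf21 stromal cells (0.412 to 0.464) and 0.887 in myoid cells (0.864 to 0.910). Fos and Ier2 were the 2 of 10 genes under 0.5 in vascular smooth muscle cells, against 13.5% of all genes, and the 2 of 10 in Tcf21 stromal cells, against 7.56%. Fos was the only gene of 9 under 0.5 in immune cells, against 25.7%.

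Other genes of the set were higher in the Tomato-negative library. Atf3 in myoid cells stood at 780 CPM, against 389 CPM in control cells, a ratio of 2.0 (1.84 to 2.18), and was the 1 gene of 10 above 2 there, against 2.94% of all genes, with none under 0.5, against 4.70%. In Tcf21 stromal cells Fosb had a ratio of 1.46 (1.37 to 1.56), Egr1 1.39 (1.29 to 1.50) and Jund 1.38 (1.29 to 1.47), beside the low Fos and Ier2. Hspa1b alone of 10 was above 2 there, at 2.28 (1.03 to 6.52) from 28 Tomato-negative and 7 control counts, against 4.71% of all genes. None of the 9 genes was above 2 in immune cells, against 5.90% of all genes. In vascular smooth muscle cells, where 7.40% were above 2, Hspa1b had 28 Tomato-negative counts in 240 cells, a level under that of 3 counts in the control class, where none was seen, so no fold is given. The 2 heat shock genes summed to a ratio of 1.71 in myoid cells (1.48 to 1.97) and 1.36 in Tcf21 stromal cells (1.03 to 1.81). With classes taken from each cell's own markers the myoid ratio of the 8 genes was 0.755: the Tomato-negative library then had 369 myoid and 33 vascular smooth muscle cells, in place of 163 and 240, so the low Fos of the vascular smooth muscle class rests on cells whose class depends on this choice. Without the upper limit on detected genes the ratio in vascular smooth muscle cells was 0.257.

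**Figure D5:**
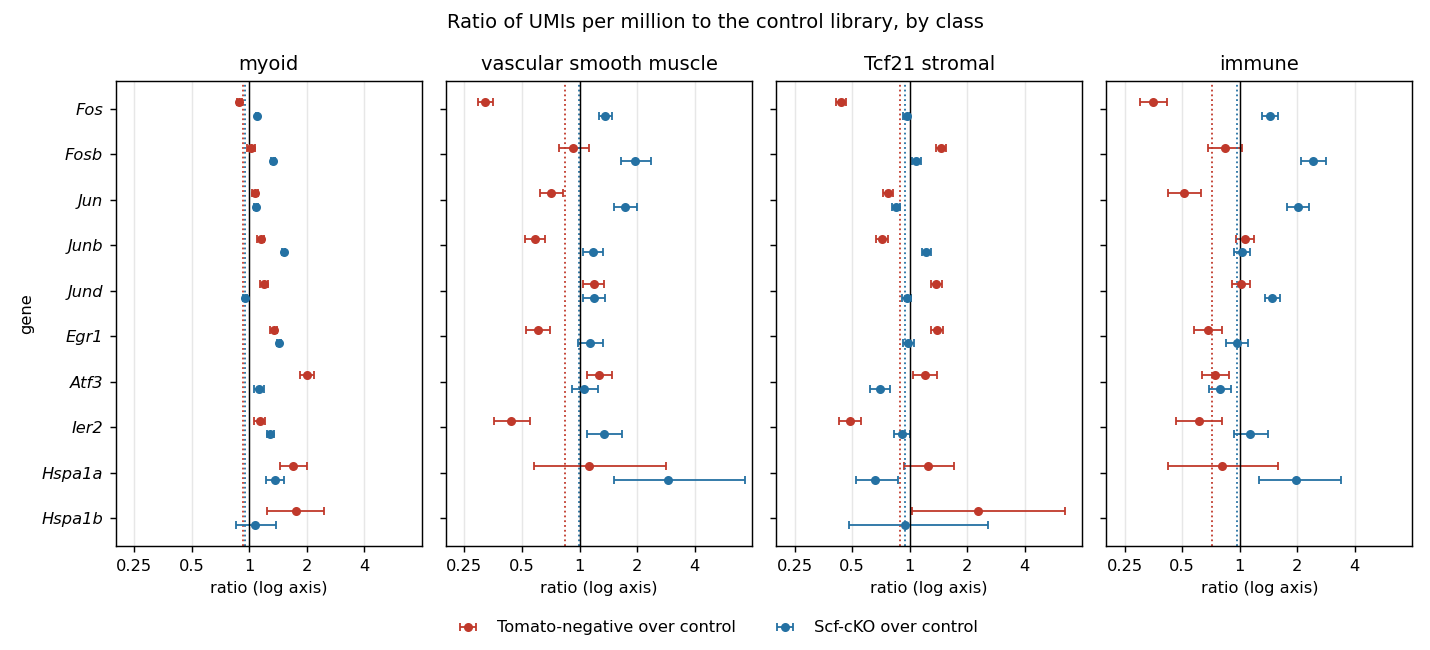
Ratio of each gene's CPM in Scf-cKO over control and in Tomato-negative over control cells (log axis) with the 95% counting interval, by class; the dotted lines are the median ratio over all genes with enough counts, and genes with no control count are not drawn. Junb and Egr1 lie above 1.4 in Scf-cKO over control myoid cells, and Fos lies under 0.5 in Tomato-negative over control vascular smooth muscle, Tcf21 stromal and immune cells.

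Wider lists of related genes were read in the same way. Of 10 further AP-1, ATF, MAF and CEBP genes with enough counts, 7 had an interval above 1 and 0 below in Scf-cKO over control myoid cells, with a median ratio of 1.56 against 0.953 over all genes, of which 11.9% had an interval above 1 and 21.7% below. Cebpb, an acute-phase transcription factor, stood at a ratio of 2.04 (1.88 to 2.22), Fosl2, another AP-1 subunit, at 1.89 (1.69 to 2.11), and Cebpd at 1.75 (1.67 to 1.83). Of 32 other immediate early genes 22 had an interval above 1 and 5 below, with a median of 1.36. Among them Socs3, the inhibitor of cytokine signalling, was at 2.48 (2.30 to 2.67), Nr4a3, an orphan nuclear receptor, at 2.77 and Egr3 at 2.62. Ccn2, a matrix protein gene, was at 0.750 (0.731 to 0.770), Mcl1, a survival factor, at 0.843 and Ier5 at 0.852. The other heat shock genes did not move with them: 5 of 24 had an interval above 1 and 10 below, with a median of 0.926. Bag3, a co-chaperone, was at 1.42, Dnaja1 at 1.25 and Hspa5, the chaperone of the endoplasmic reticulum, at 1.10. Lowest were Hspa4l at 0.167, Hspb8 at 0.235 and Hsph1 at 0.346. Hspa4l was low in Tcf21 stromal (0.162) and immune cells (0.241) too. Germ-cell transcripts summed to 24.1 CPM in Scf-cKO and 762 CPM in control myoid cells, and their part in these low ratios was not tested. Of 10 other genes known from dissociated tissue, the metallothioneins Mt1 and Mt2, which bind zinc, were at 1.80 and 1.81 and Nop58, a nucleolar protein gene, at 1.38, and Ubb and Tubb4b were at 0.700 and 0.699.

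In Scf-cKO over control Tcf21 stromal cells 3 of 9 AP-1, ATF, MAF and CEBP genes and 15 of 32 other immediate early genes had an interval above 1, against 4.55% of all genes, with 0 and 2 below, against 7.53%. Nfkbia, the NF-kappaB inhibitor, was at 2.61 (2.14 to 3.25), Dusp5 at 3.20, Btg2 at 1.54 and Maff at 1.77, whereas Ccn2 was at 0.743 and Dusp1 at 0.849. The list medians were 1.29 and 1.18, against 0.941 over all genes. In vascular smooth muscle cells 0 of 8 and 5 of 28 listed genes had an interval above 1, against 5.25% of all genes. Below 1 were 1 and 3, against 5.07%, and the medians were 0.857 and 1.11, against 0.991. In immune cells 6 of 10 and 14 of 30 were above, against 12.2%, and 1 and 8 below, against 14.1%. The medians there were 1.62 and 1.50, against 0.963. Intervals narrow with counts, and the listed genes and the 10 genes have more counts than most, so their shares with an interval off 1 are not on the same footing as those of all genes.

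In Tomato-negative over control myoid cells 22 of 32 other immediate early genes had an interval above 1 and 1 below, with a median of 1.30 against 0.928 over all genes, of which 8.80% had an interval above 1 and 15.9% below. Egr2 was at 2.77 (1.98 to 3.90), Egr3 at 2.82 (1.89 to 4.22), Gadd45g at 1.99 (1.85 to 2.14) and Ccn2 at 0.721. Ddit3 and Atf4, factors of the integrated stress response, were at 2.16 (1.78 to 2.61) and 1.79 (1.58 to 2.02). The genes known from dissociated tissue were further apart than in the other comparison: 8 of 10 had an interval above 1, with Mt2 at 3.75 (3.22 to 4.38) and Mt1 at 3.13 (3.0 to 3.27), and Txnip at 0.776. In Tcf21 stromal cells Mt2 was at 6.82 (5.41 to 8.83), Mt1 at 4.31 (3.98 to 4.67), Maff at 3.88 (2.75 to 5.74) and Trib1 at 10.0 (3.78 to 58.0), whereas Klf2, a shear-responsive factor, was at 0.334 (0.302 to 0.370) and Ccn2 at 0.254 (0.187 to 0.339).

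Over the 26 points of class and library, the genes whose log2 level was most like that of Fos, members aside, were Slc38a2 (Pearson r 0.977), Btg2 (0.975), Camk2d (0.958), Zfp36 (0.955) and Rps4x (0.954), among 15289 genes. Of the set itself Egr1 was the closest to Fos (0.981), followed by Jun and Ier2 (both 0.971), Junb (0.960) and Fosb (0.952). Hspa1a (0.926), Jund (0.905), Atf3 (0.892) and Hspa1b (0.746) were less alike. Nearest to Hspa1a were Dusp1 (0.953), Nr4a1 (0.951), Zfp36l1 (0.951), Slc38a2 (0.944) and Mbnl2 (0.942). These points share libraries and are not independent, and the contrast of somatic with germ cells is in each of them.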

How the data were processed

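Single-cell 3′ libraries of testicular cells were processed by the authors with Cell Ranger 2.1.1 on GRCm38 (annotation not given in the sources used here) and analysed in Seurat 3.1. The deposited values were raw UMI counts per gene and cell in 3 tables. The somatic table joins cells of several libraries. Its barcodes ending in 1 were taken as Tomato-negative, the rest repeating control and Scf-cKO barcodes; the labels do not say so. The 10 genes, wider lists and markers were chosen with earlier results of these data known.

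Cells of 200 to 3500 genes, with mitochondrial counts up to 10%, were clustered in R 4.3.3 with Seurat 5.3.0. The first map joined Tomato-negative and control cells with 34 Scf-cKO cells (15 components, resolution 0.3). The second map held Scf-cKO and control cells after integration (20 components, resolution 0.5). Germ clusters had Ddx4 in at least 50% of cells, Tnp1 at 25 or more per 10000 counts, or a germ marker score on top. Somatic (10 components, resolution 0.08) and germ cells (25 components, resolution 0.3) were clustered again. Clusters took the class of their best marker score if at least 3 of its markers were in 10% of cells. They stayed unnamed if another class had more markers in the top 10 genes. Clusters far shallower than the rest, with none of their own markers in those 10 genes, stayed unnamed too. A somatic cluster of the first round kept its class where no later cluster carried that class. These rules were settled after clusters were seen. The 10 genes were among those used for clustering. Tomato-negative classes came from the first map, the others from the second.

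Counts were summed per class and library and scaled to the class total (CPM), in Python 3.11.15 with NumPy 2.4.6, SciPy 1.17.1, pandas 2.3.3 and matplotlib 3.10.9. Intervals (95%) were exact Poisson for CPM, Clopper-Pearson for shares and exact conditional binomial for ratios, with 0.5 added to both counts of every ratio. UMIs mark molecules, and mice were pooled, so intervals cover counting error only and no p-value was computed. A gene counted as past the fold above a ratio of 2 or below 0.5, with at least 20 counts over both libraries. Scripts were tested on simulated data. Doublets called by Scrublet (scanpy 1.11.5) were 329 Tomato-negative (4.31%), 335 Scf-cKO (4.62%) and 214 control barcodes (3.42%) and were left in, with their removal as an alternative.

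Named genes were all 10 in every class of at least 30 cells, the 3 highest and 3 lowest of each wider list by the interval end nearest to 1 in the classes with most cells, and the 5 genes most like Fos and Hspa1a by Pearson r of log2(CPM + 1) over classes and libraries. Where fewer had an interval off 1, fewer were named. The text prints part of the genes of the wider lists that this rule names, chosen after their values were seen. Hspa2 and Hspa1l in germ cells were named after their values were seen. Alternatives were no upper gene limit, 5% mitochondrial counts, no doublets, clustering without the response genes, classes from each cell's own markers, thinning to 1000 UMIs, scaling by the median ratio and another control map; naming unnamed somatic clusters by their best score was added after seeing the data.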

Additional observations from a re-analysis of the deposited data

Results flagged for a closer look

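The 2 heat shock genes lay on different sides of 1 in different classes of Scf-cKO over control. Their summed ratio was 1.30 in myoid cells, 3.47 in vascular smooth muscle cells and 1.96 in immune cells, but 0.695 in Tcf21 stromal cells. In Tcf21 stromal cells the sum was 153 CPM in the Scf-cKO library and 219 CPM in the control library, from 1170 and 75 counts. The vascular smooth muscle value rests on 143 Scf-cKO and 8 control counts. With 1 library a genotype, the difference between classes was not tested.

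The 8 immediate early genes likewise lay above 1 in 1 class of Tomato-negative over control and below it in the others: 1.07 in myoid cells, against 0.669 in vascular smooth muscle, 0.905 in Tcf21 stromal and 0.766 in immune cells. The difference between classes was not tested here either, and scaling by the median ratio of all genes puts Tcf21 stromal cells at 1.01 and immune cells at 1.07.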

How the results depend on the processing

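No paired analysis was possible because each group is 1 library, and for the same reason no replicate could be left out. Of the summed ratios under the alternatives, 154 moved by less than their counting interval, 45 moved further and 6 whose interval lay off 1 crossed it. Where the interval held 1, 14 of 74 values crossed it too. Scf-cKO over control kept its direction in the sums of myoid, vascular smooth muscle and immune cells under every alternative that gave a value. The 8-gene ratios that moved were, without an upper gene limit, 1.43 (vascular smooth muscle), 0.936 (Tcf21 stromal), 1.29 (immune) and 0.889 (differentiating spermatogonia); thinned to 1000 UMIs, 1.22 (myoid), 1.22 (vascular smooth muscle) and 1.11 (immune); scaled by the median ratio of all genes, 1.26 (myoid) and 1.05 (Tcf21 stromal); without doublets, 1.18 (immune); with classes from each cell's own markers, 1.23 (immune) and 2.67 (differentiating spermatogonia, with 15.2 for the 2 heat shock genes); and with the response genes left out of clustering, with or without unnamed clusters named, 0.940 (Tcf21 stromal) and 0.842 (differentiating spermatogonia). Junb in vascular smooth muscle cells crossed to 0.986 when thinned.

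Tomato-negative over control moved more. With classes from each cell's own markers the 8-gene ratio was 0.755 in myoid cells (Jun 0.699, Junb 0.783, Egr1 0.845, Ier2 0.707, and 1.05 for the 2 heat shock genes), 0.933 in Tcf21 stromal cells, 0.996 in differentiating spermatogonia and 0.841 in spermatids. Scaled by the median ratio it was 1.16 in myoid, 0.799 in vascular smooth muscle, 1.01 in Tcf21 stromal and 1.07 in immune cells (Atf3 1.04). Without an upper gene limit it was 0.257 in vascular smooth muscle (Jund 0.402, Atf3 0.446, and 0.463 for the 2 heat shock genes), 0.877 in Tcf21 stromal cells, 0.846 in undifferentiated spermatogonia (Jun 1.06) and 0.958 in differentiating ones (Ier2 1.37). It was 0.715 in vascular smooth muscle at 5% mitochondrial counts; with the response genes left out of clustering 0.712 in vascular smooth muscle and 0.820 in Tcf21 stromal cells, and 1.09 in myoid cells once unnamed clusters were named; thinned, 0.635 in vascular smooth muscle, 0.672 in immune cells and 0.893 in differentiating spermatogonia; and with control classes from the other map 1.09 in myoid, 0.859 in Tcf21 stromal and 0.725 in immune cells, 0.958 in differentiating spermatogonia and 0.864 in spermatids. Without doublets spermatids crossed to 0.945 (Fosb 0.788). The cause of these moves was not tested. Leaving the response genes out of clustering gave no control myoid class, and own markers no control vascular smooth muscle class of 30 cells. Counts limit the heat shock genes most: 8 control vascular smooth muscle counts and 6 or fewer in undifferentiated spermatogonia of the Tomato-negative and control libraries.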

Other observations

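Pooled over classes, barcodes outside the limits held a smaller share of the 8 transcripts than cells within them. Barcodes over 3500 genes had 374 CPM in the Tomato-negative library (4075 barcodes), 2763 CPM in the Scf-cKO library (2493 barcodes) and 265 CPM in the control library (2487 barcodes), against 6046, 23478 and 5270 CPM in the kept cells of the same libraries. Barcodes over 10% mitochondrial counts had 402 CPM, 3904 CPM and 521 CPM. These barcodes were given no class in the results above, so the pooled levels do not compare like cells. Without the upper gene limit there were 2326 Scf-cKO undifferentiated spermatogonia, against 323 with it, and 1281 Tomato-negative spermatocytes, against 42. Tomato-negative Sertoli cells then had 2645 CPM, against 694 CPM. The part of class make-up in the gap was not tested.

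A small unnamed germ-side cluster of the joint map had 5907 CPM of the 8 genes in 25 Scf-cKO cells and 5207 CPM in 5 control cells, with Fos at 1277 CPM and 1522 CPM, above every named germ class of those libraries. The top genes of this cluster included the myoid markers Acta2 and Myh11 and the stromal marker Dcn. They held more myoid markers than markers of undifferentiated spermatogonia, the class with the best score, so the cluster was left unnamed. Whether its cells were mixed with somatic cells or their transcripts was not tested.

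In most somatic classes the summed level was lower in cells with more mitochondrial counts. In Tomato-negative vascular smooth muscle cells it was 10217 CPM from 2.5% to 5% and 6665 CPM from 5% to 10% mitochondrial counts. In Tomato-negative myoid cells it was 23330 CPM under 2.5% and 18170 CPM from 2.5% to 5%, and in Scf-cKO Tcf21 stromal cells 29556 CPM and 22257 CPM in the same bins. Scf-cKO immune cells ran the other way, at 11920 CPM under 2.5% and 13016 CPM from 2.5% to 5%, and Scf-cKO myoid cells had 24564 CPM under 2.5%, 16214 CPM from 2.5% to 5% and 20162 CPM from 5% to 10%.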
